A study of Mus musculus with 2 samples.

Results

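The genes described here are 42 mouse genes of the cell cycle and of DNA replication, taken by name from the 35976 gene rows of single-cell read counts. All 42 had a row. They fall into 10 replication genes (Mcm2 to Mcm7, Pcna, Tyms, Rrm1 and Rrm2), 18 mitosis genes (Ccnb1, Ccnb2, Cdk1, Birc5, Bub1, Bub1b, Cenpa, Cenpe, Cenpf, Aurka, Aurkb, Plk1, Kif11, Kif20a, Cdc20, Ube2c, Nusap1 and Tpx2) and 14 further members (Mki67, Top2a, Ccna2, Ccne2, Stmn1, Tubb5, Tuba1b, Hmgb2, Tk1, Cks1b, Cks2, Ezh2, Dut and Anapc4). The cells were splenic CD4 T cells of the OTII line, whose transgenic receptor recognises ovalbumin, after transfer into mice of either group. The control group was 1 pool of 2 C57BL/6 mice, and the deleted group was 1 pool of 3 mice of the genotype IL13Ra1f/f, CD11cCre/+. CD11c drives Cre mainly in dendritic cells, and in some other leukocytes, so the floxed receptor gene was to be lost in host cells and not in the transferred T cells. Both groups had received CAS and a second priming, and spleens were taken on day 7. The labels do not spell out CAS and give no age or sex of the mice. Viable cells were sorted as V beta 5.1/5.2 positive and CD4 positive, with no congenic marker named, so host CD4 T cells with that receptor chain could pass the gate.

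Cells that enter the cell cycle first load the MCM helicase, a ring of 6 different subunits (Mcm2 to Mcm7), onto DNA, and then copy the genome with the help of the sliding clamp Pcna and of enzymes that make deoxynucleotides (Tyms, Rrm1, Rrm2, Tk1, Dut). Genes of this step are switched on by E2F transcription factors late in G1. The genes of mitosis come up later, in G2, through B-MYB and FOXM1 complexes at CHR elements together with NF-Y at CCAAT, and most of their mRNAs are lost when the cell leaves mitosis. A T cell that meets its antigen passes from rest into rapid division and then slows again. Many of these genes are therefore commonly taken as signs of division, while others, such as Tubb5, were read in most cells here.

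Promoters of 6 members are shown here because they carry the elements of the replication or of the mitosis programme. Sequences are from RefSeq (assembly GRCm38.p6, also called mm10), each being the 200 bases before an annotated start, in the direction of the gene. For Mcm5 and Top2a the annotated extent of the gene begins earlier, at 75109468 and 99024199, so the last bases shown lie inside it. The bases after the start were found in a transcript of the gene for Cdc20, Cdk1, Top2a and Ube2c, and not for Mcm5 and Mcm6. Capitals mark E2F words (TTTCCCGC, TTTCGCGC, TTTGCCGC or TTTGGCGC), CHR words (TTTGAA or TTCGAA) and CCAAT, each searched on both strands, so that CCAAT also appears as ATTGG. Words can overlap: 2 E2F words do so in Mcm5 and in Mcm6, and CCAAT meets its complement in Ube2c.
Mcm5, chr8:75109309-75109508, plus strand: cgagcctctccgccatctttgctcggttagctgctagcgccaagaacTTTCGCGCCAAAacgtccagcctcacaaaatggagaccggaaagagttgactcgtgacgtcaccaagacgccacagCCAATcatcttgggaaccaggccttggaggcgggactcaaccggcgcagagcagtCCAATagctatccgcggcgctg
Mcm6, chr1:128359706-128359905, minus strand: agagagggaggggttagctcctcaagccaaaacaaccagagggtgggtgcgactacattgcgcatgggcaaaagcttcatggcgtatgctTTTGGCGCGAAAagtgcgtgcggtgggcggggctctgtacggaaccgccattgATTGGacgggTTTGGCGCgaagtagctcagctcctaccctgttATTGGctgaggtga
Cdk1, chr10:69352913-69353112, minus strand: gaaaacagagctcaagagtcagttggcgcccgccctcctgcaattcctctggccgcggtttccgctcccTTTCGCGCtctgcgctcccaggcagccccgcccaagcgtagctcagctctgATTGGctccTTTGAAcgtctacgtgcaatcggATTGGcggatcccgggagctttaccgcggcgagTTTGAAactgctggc
Cdc20, chr4:118437344-118437543, minus strand: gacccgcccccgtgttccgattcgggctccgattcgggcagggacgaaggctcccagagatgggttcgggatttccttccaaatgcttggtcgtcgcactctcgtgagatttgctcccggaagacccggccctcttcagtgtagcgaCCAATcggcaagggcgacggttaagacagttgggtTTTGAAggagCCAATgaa
Ube2c, chr2:164769729-164769928, plus strand: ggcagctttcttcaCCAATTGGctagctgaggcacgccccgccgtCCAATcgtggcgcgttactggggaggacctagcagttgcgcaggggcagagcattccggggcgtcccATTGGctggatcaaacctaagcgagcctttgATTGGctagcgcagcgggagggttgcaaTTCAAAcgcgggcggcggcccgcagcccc
Top2a, chr11:99024190-99024389, minus strand: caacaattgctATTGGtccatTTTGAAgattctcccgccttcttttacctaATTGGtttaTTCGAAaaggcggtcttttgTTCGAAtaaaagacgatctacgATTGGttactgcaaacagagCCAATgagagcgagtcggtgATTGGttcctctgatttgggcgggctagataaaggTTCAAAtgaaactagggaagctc

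The helicase genes Mcm5 and Mcm6 had E2F words and no CHR word in these stretches. Cdc20 and Ube2c, which start the destruction of cyclin B and securin, had a CHR word close to the start and no E2F word. Cdk1, the kinase that drives entry into mitosis, had both. Promoter windows from 250 bases before to 50 after the start were found for 35 of the 42 members. The 10 replication windows belong to 9 genes, as Mcm7 had 2 windows and Mcm4 had none. E2F words were in 4 of 10 replication windows (40%) and 1 of 15 mitosis windows (6.67%), beside 2.85% of all 21263 windows of protein-coding genes. A CHR word was in 2 of 10 replication windows (20%) and in 11 of 15 mitosis windows (73.3%), beside 17.6% of all windows. CCAAT was in 9 of 10 and 13 of 15, beside 38.2%, and a CHR word together with CCAAT was in 11 of the 15 mitosis windows, beside 7.11%. A match is a description of the letters and not a measured binding site.

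**Figure D1:**
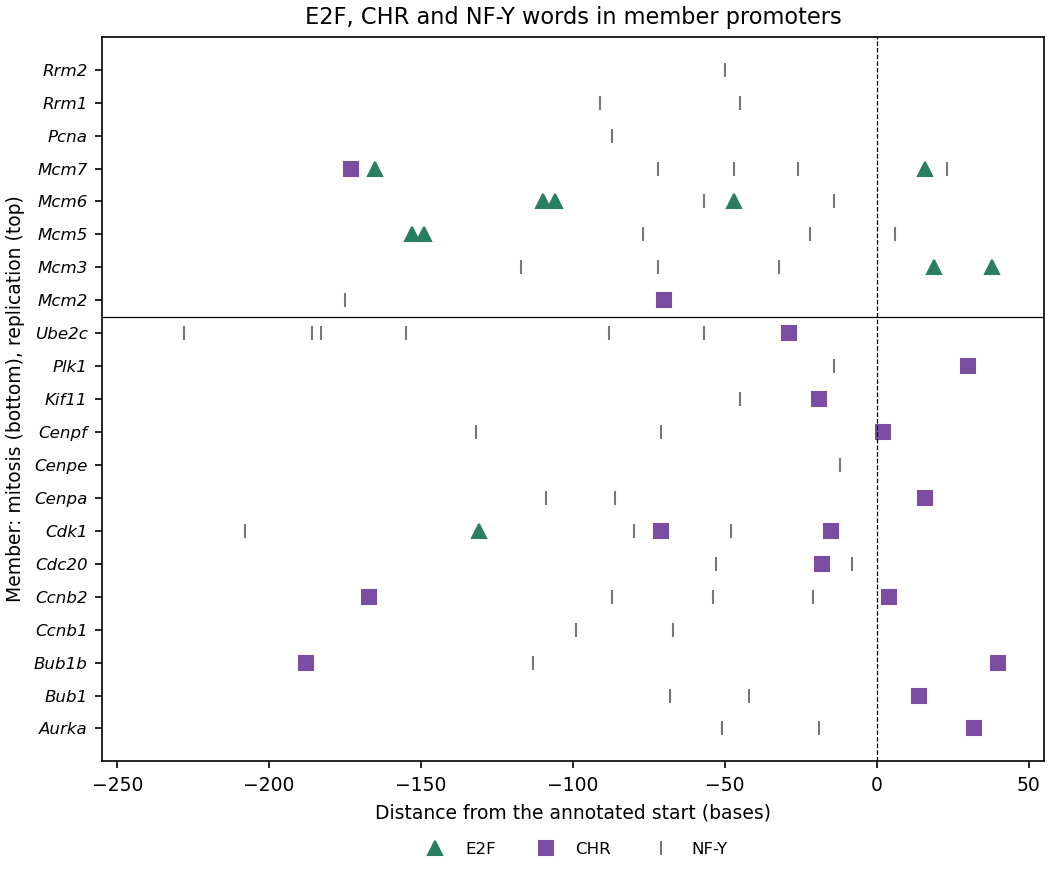
Positions of E2F words (triangles), CHR words (squares) and NF-Y words, that is CCAAT or its complement (ticks), in the promoter windows of replication (top) and mitosis (bottom) members. The horizontal axis is the distance from the annotated start in bases, and members with no word or no window are not drawn. E2F words lie in 4 replication windows and 1 mitosis window, and CHR words in 2 and 11.

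Each pool was read in 368 cell wells on 4 plates of 92, which are technical splits of 1 set of animals. Plate totals were 125197307 to 148025125 reads in genes, and the plate medians of genes with at least 5 reads were 1510.5 to 1626 per cell. Wells C5 of deleted plate 1 (71129 reads) and A12 of deleted plate 4 (9905 reads) stood apart in depth. Their reads are kept in the sums, and leaving them out changed no count of members at least 2-fold apart. The 7 CD4 T cell markers with a row (Cd4, Cd3d, Cd3e, Cd3g, Cd28, Lck and Cd5) summed to 6888 counts per 1000000 reads in genes (CPM) in the control pool and 7060 CPM in the deleted pool. Markers of B, plasma, innate lymphoid, myeloid and erythroid cells each summed to at most 33.5 CPM in either pool. With 1 pooled sample per group there is no replicate check and no test between groups. Plate and pool cannot be told apart, and in a summed value neither can fewer positive cells and less RNA per cell.

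In few cells of either pool were many of these genes read together. A member was called positive in a cell at 10 CPM or more, and a gene said to be read in a cell is one at that level. The median cell was positive for 4 of the 42 members in both pools, and cells with 0 to 9 members made up all but 7 of the 736. Cells with 10 or more numbered 3 of 368 in the control pool (0.815%, exact 95% binomial interval 0.168 to 2.36%) and 4 of 368 in the deleted pool (1.09%, 0.297 to 2.76%). The intervals overlap and cover counting error only. By plate there were 0, 1, 0 and 2 such cells on control plates 1 to 4, and 1 on each deleted plate. With 8 or more members, the counts were 15 control and 14 deleted cells.

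**Figure D2:**
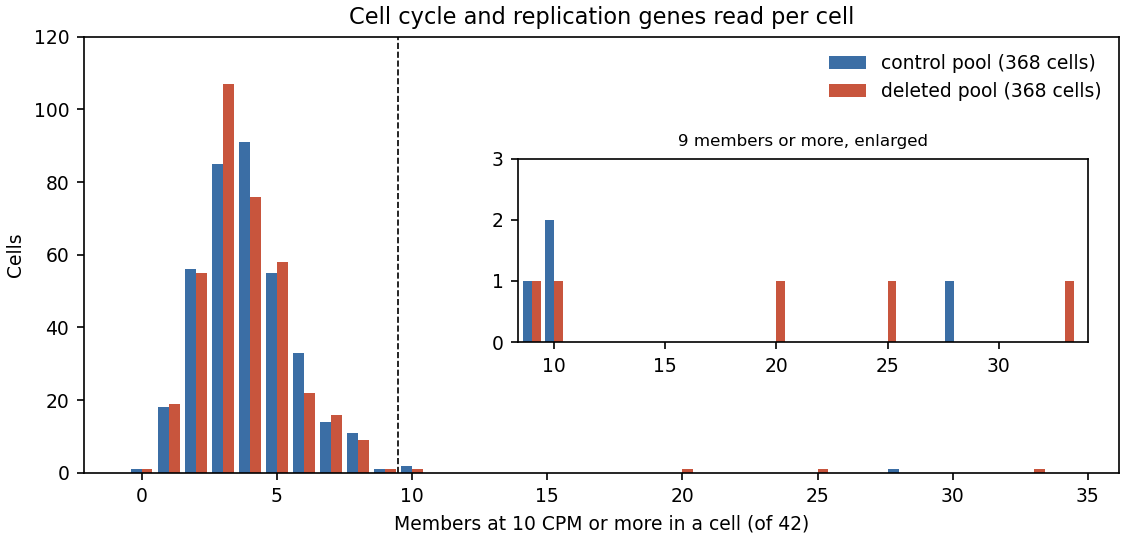
Number of cells (vertical axis) by the number of the 42 members at 10 CPM or more (horizontal axis), for the control pool (blue) and the deleted pool (red), with the range from 9 members enlarged. The dashed line is the threshold of 10 members. Both pools peak at 3 to 4 members, 3 cells lie at 10, and 4 cells stand apart at 20, 25, 28 and 33.

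Above 10 members there was a gap up to 20. The 4 cells beyond it were H1 of deleted plate 2 (33 members), B10 of control plate 4 (28), D5 of deleted plate 3 (25) and C5 of deleted plate 1 (20). C5 is not comparable with the others, because 10 CPM is less than 1 read in a well of 71129 reads and only 3 of its members had 5 reads or more. Wells without a cell likewise held 14 to 23 members at 10 CPM, and 0 to 3 at 5 reads or more. The other 3 cells kept all their members at 5 reads or more. They are called the 3 member-rich cells below, a range of a count chosen after their values were seen and not a cell type. They had 3098 (H1), 3541 (B10) and 3201 (D5) genes with 5 reads or more, against a median of 1556 over all cells. Whether any of these wells held more than 1 cell was not tested.

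These 3 cells differed in which phase genes they carried. H1 was positive for 7 of 10 replication and 15 of 18 mitosis members. Its mitosis members summed to 11357 CPM and its replication members to 4647 CPM. In it the ribonucleotide reductase subunit Rrm2 was at 2083 CPM, Mki67, the gene of the Ki-67 proliferation antigen, at 1673 CPM, and Cdk1 at 1078 CPM. D5 was positive for 2 replication and 14 mitosis members, with sums of 672 and 10754 CPM. D5 had no MCM subunit at 10 CPM, while Cdc20 was at 2745 CPM, the B cyclins Ccnb2 and Ccnb1 at 1353 and 1014 CPM, and the A cyclin Ccna2 at 1233 CPM. B10 was positive for 7 replication and 7 mitosis members, with sums of 3679 and 1705 CPM. B10 had 4 MCM subunits, Pcna at 420 CPM and Tyms at 252 CPM, no read of Cdk1 and 1 read of Ccnb1. Both deleted-pool cells thus held more mitosis than replication members, and the control cell held as many of each.

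The 3 cells at 10 members were of another kind. F4 of control plate 4 was positive for 5 MCM subunits, at 499 to 2517 CPM, and for 1 mitosis member, the spindle motor gene Kif11. G9 of deleted plate 4 had 4 MCM subunits and 0 mitosis members. E2 of control plate 2 had Mcm4, Rrm2, Top2a and Stmn1 and likewise 0 mitosis members. Their replication members summed to 5405, 2995 and 1619 CPM.

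**Figure D3:**
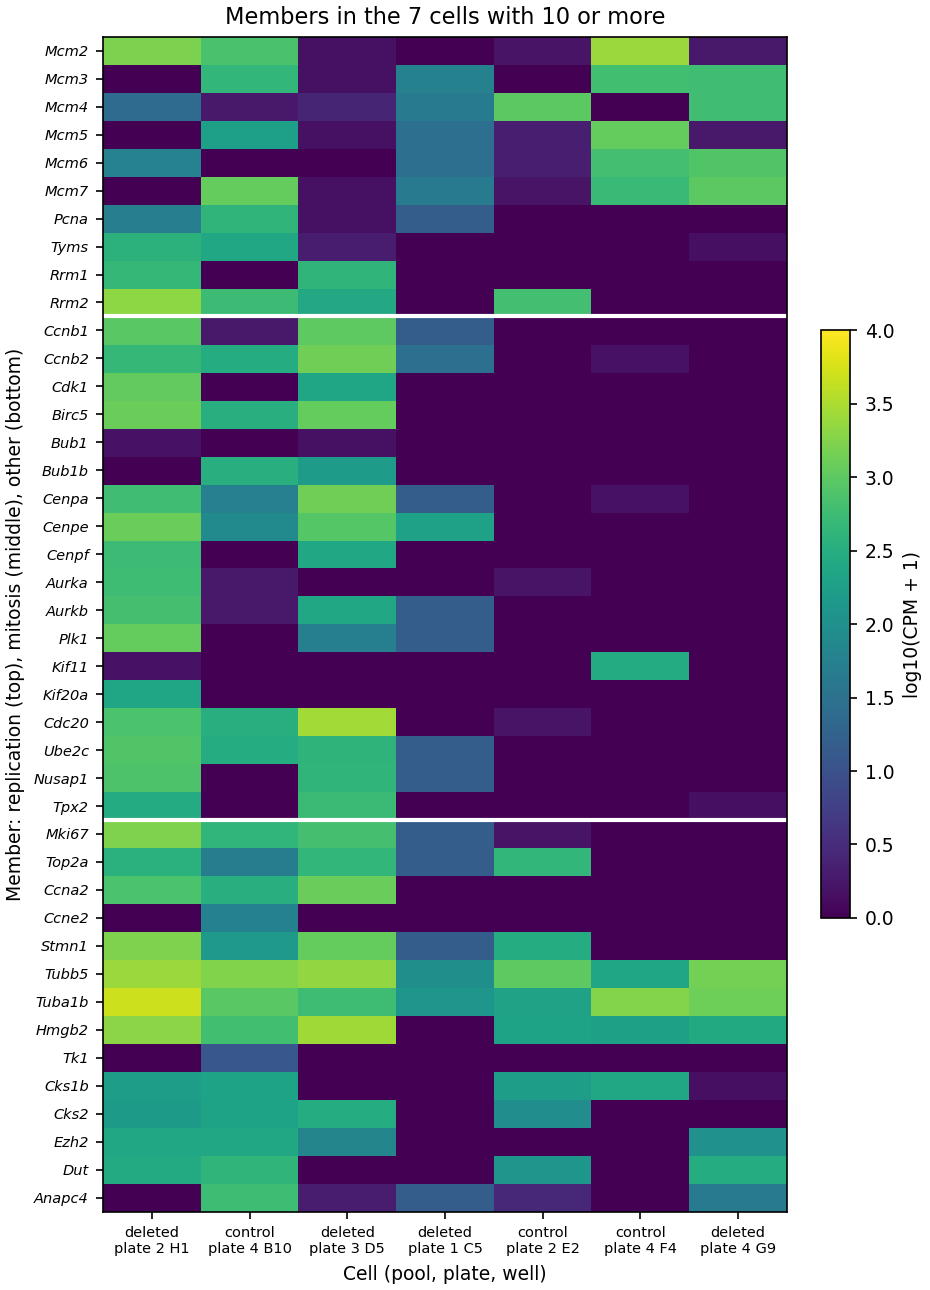
Level of each member, as log10 of CPM + 1 (colour), in the 7 cells with 10 or more members, ordered from 33 to 10 members. White lines part replication, mitosis and other members. The mitosis block is filled in H1 and D5, partly filled in B10, faint in C5 (1 to 14 reads per positive mitosis member) and empty but for Kif11 in E2, F4 and G9.

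Outside these cells, mitosis genes were read singly. Of the 736 cells, 563 had 0 mitosis members, 154 had 1, 14 had 2 and 1 had 3, and none lay between 3 and the 4 cells with 7, 8, 14 and 15. In 124 cells the 1 mitosis member was Cenpa, the histone H3 variant of centromeres. Replication genes were read far more widely, with at least 1 of the 10 in 64.9% of control and 66.0% of deleted cells (intervals 59.8 to 69.8% and 60.9 to 70.9%). Even so, the subunits of the helicase were rarely read together in a cell. H1, with 1605 CPM of Mcm2, had 0 reads of Mcm3, Mcm5 and Mcm7. Whether an unread member was absent from a cell or missed in reading it was not tested. Over both pools 347 cells had 0 of the 6 MCM genes, 269 had 1, 96 had 2, 17 had 3, 5 had 4 and 2 had 5. In 0 of the 368 cells of each pool all 6 were read at 10 CPM, which allows a share of such cells of up to 0.815% (3 counts). Of the 30912 pairs of member and cell, 2922 were positive, and 249 of these (8.52%) lay between 10 and 50 CPM. A further 8474 pairs had reads but under 10 CPM, and 19516 had 0 reads. Lyz2, a myeloid gene that T cells should lack, was at 12.1 and 15.3 CPM in the cells outside the 7. It reached 10 CPM in 61.1% of control and 77.5% of deleted cells there. S100a8 did so in 5.48% and 12.9%, and Cd68, Csf1r, Flt3, Itgam, Itgax and Zbtb46 in at most 1.64%. Values near 10 CPM can thus be background for some genes, while most listed myeloid genes rarely reached that level.

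Summed over each pool, the members went in different directions. Of all 42, 12 lay 2-fold or more above the control pool in the deleted pool and 1, Anapc4, lay 2-fold or more below, on the scale of log2 of (deleted CPM + 1) over (control CPM + 1). Of the 32 that reached 5 CPM in either pool, 10 were higher and 1 was lower, beside 5.98% higher and 6.71% lower of the 9764 genes at that minimum. Members such as Ccnb1 and Cdk1 reached the minimum only through the deleted pool and so had to differ, and the counts of those 32 support nothing by themselves. Mcm7 and Cdc20 were higher on every deleted plate than on any control plate (1.81% of the 9764 genes were), and Tubb5 and Anapc4 were lower on every deleted plate (2.6%). Aurkb was also higher on every deleted plate, but under 5 CPM. The median log2 ratio over all 42 was 0.39, beside -0.04 over the 9764 genes. Without the 3 member-rich cells it was 0.02, with 5 members higher and 6 lower by 2-fold or more. The 3 cells were picked by their number of members, so levels of the members concentrated in them had to go down without them.

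**Figure D4:**
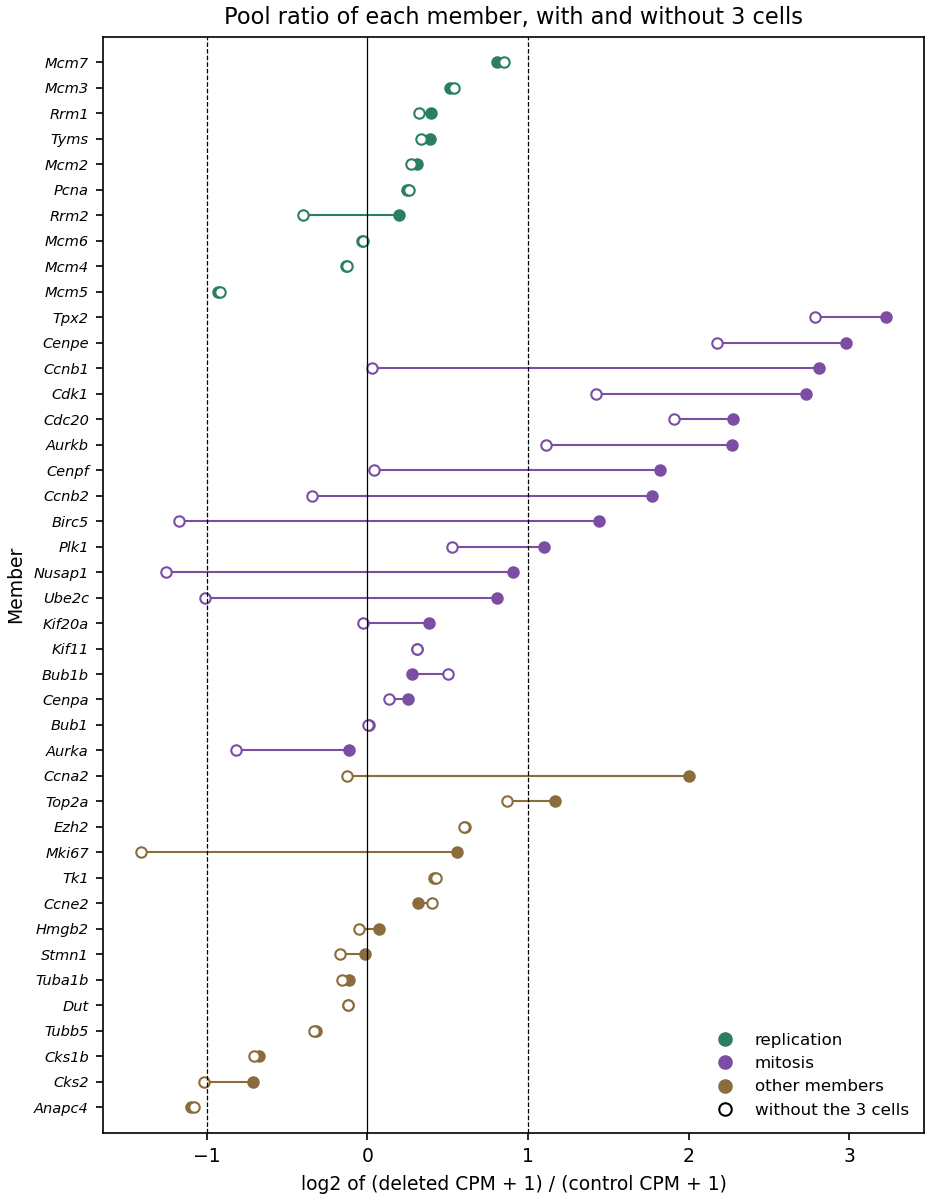
Log2 ratio of each member between the pools (deleted over control, 1 CPM added to each), with all cells (filled) and without the 3 member-rich cells (open), by role. Dashed lines mark 2-fold. All 10 replication members lie within 2-fold either way, while mitosis members such as Ccnb1, from 2.81 to 0.03, and Birc5, from 1.44 to -1.17, move left.

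The replication genes were at similar levels in the pools. Their sum was 888, 735, 819 and 836 CPM on control plates 1 to 4, and 810, 869, 986 and 991 CPM on the deleted plates. The plates overlapped, the pooled sums of 820.5 and 917.6 CPM differed 1.12-fold, and each of the 10 members was within 2-fold. The median log2 ratio was 0.28, and 0.27 without the 3 cells.

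**Figure D5:**
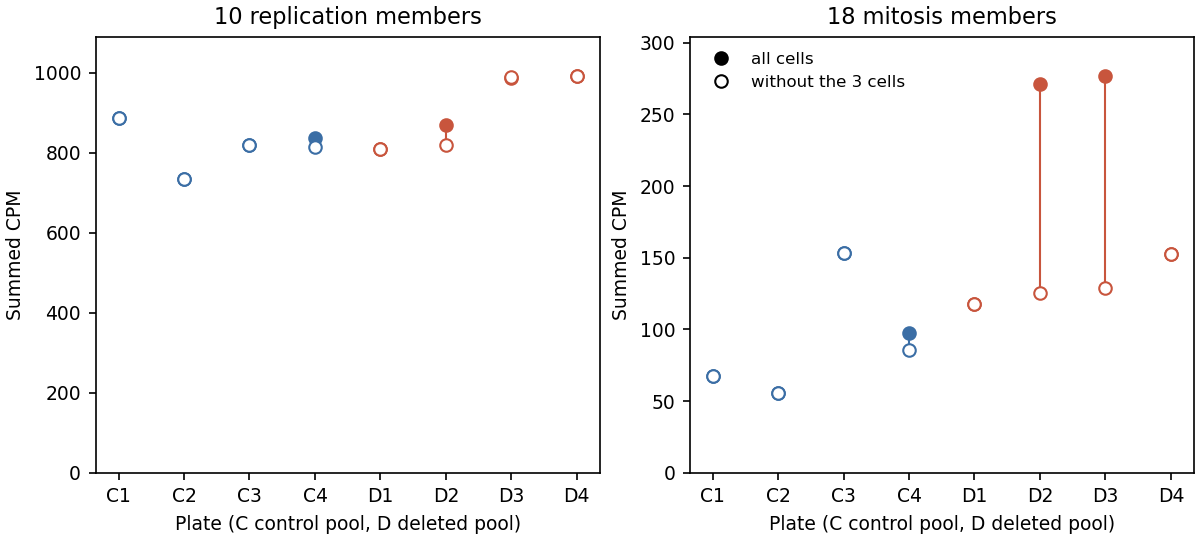
Summed CPM of the 10 replication members (left) and the 18 mitosis members (right) on each plate, with all cells (filled) and without the 3 member-rich cells (open). Replication sums lie between 735 and 991 CPM with overlapping pools. For mitosis, deleted plates 2 and 3 fall from 272 and 277 to 126 and 129 CPM, within the control range of 55.8 to 153.

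Among the helicase subunits, Mcm7 (chromosome 5, 138164583 to 138172111) was the one without overlap. It was at 69.8, 65.5, 99.2 and 93.6 CPM on control plates 1 to 4, and at 103, 114, 126 and 228 CPM on the deleted plates. Every deleted plate was above every control plate, though the gap between 99.2 and 103 CPM was small. The pools were at 82.3 CPM (exact Poisson 95% interval 81.5 to 83.0) and 144.6 CPM (143.6 to 145.6), a log2 ratio of 0.81, in 42 and 60 positive cells. The interval counts PCR copies as separate reads and so is narrower than the spread of plates. Without deleted plate 4 the log2 ratio was 0.47. Mcm7 holds the microRNA genes Mir106b, Mir93 and Mir25 and overlaps Ap4m1, and without strand information reads of these cannot be told apart.

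Mcm5 went the other way, with overlap. It was at 149.6, 32.4, 95.3 and 69.7 CPM on the control plates, and at 100.1, 14.9, 28.4 and 42.3 CPM on the deleted plates. Deleted plate 1 lay above 3 of the control plates. The pools were at 87.2 and 45.3 CPM in 29 and 16 positive cells, and leaving out 1 plate gave log2 ratios from -1.56 (without deleted plate 1) to -0.54 (without control plate 1). Subunits of 1 complex therefore had ratios of opposite sign.

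The other subunits had overlapping plates and log2 ratios from -0.13 (Mcm4) to 0.51 (Mcm3). Mcm2 was at 58.1, 56.7, 107 and 143 CPM on the control plates and at 147, 131, 65.9 and 116 CPM on the deleted plates. Mcm3 ranged from 32.2 to 89.8 CPM and from 49.2 to 150 CPM. Mcm4 and Mcm6 had pool levels of 137 and 125 CPM and of 169 and 165 CPM, each in 62 to 70 cells of a pool. In the cells where an MCM gene was read, its level was high: the median positive cell had 1157 CPM of Mcm2, 934 CPM of Mcm3, 577 CPM of Mcm4, 1137 CPM of Mcm5, 911 CPM of Mcm6 and 747 CPM of Mcm7. A positive cell had a median of 4 other members, for each of the 6 subunits.

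Pcna was at 106, 122, 129 and 126 CPM on control plates and at 89.3, 130, 163 and 184 CPM on deleted plates. The lowest and the 3 highest values were all on deleted plates, so the pools overlapped. Its positive cells numbered 79 and 85. Of the enzymes of deoxynucleotide synthesis, Rrm1 was at 37.7 and 49.9 CPM (20 and 22 cells), Rrm2 at 16.5 and 19.1 CPM (9 and 7 cells) and Tyms, thymidylate synthase, at 9.87 and 13.2 CPM (9 and 12 cells). Cell H1 alone held 35.4% of the Rrm2 reads of the deleted pool, and without the 3 cells the log2 ratio of Rrm2 was -0.40 in place of 0.20.

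The mitosis genes were higher in the deleted pool as a sum, with many of the reads in 2 cells that had been picked by their number of members. Their sum was 67.3, 55.8, 153 and 97.9 CPM on control plates 1 to 4, and 118, 272, 277 and 153 CPM on the deleted plates. Deleted plates 2 and 3, those of H1 and D5, stood above the rest, and control plate 3 lay above deleted plate 1. The pooled sums were 93.9 and 205.8 CPM, 2.19-fold apart, and 90.7 and 131.8 CPM without the 3 member-rich cells, 1.45-fold apart. Much of these sums was Cenpa and Cdc20. The other 16 members summed to 21.7 and 87.5 CPM, and to 19.2 and 31.7 CPM without the 3 cells. With all cells, these 16 were at 14.1 to 40.2 CPM on control plates and at 2.99, 167, 142 and 34.3 CPM on deleted plates. At least 50% of a gene's deleted-pool reads lay in H1 and D5 for 10 of the 18 mitosis members, and at least 90% for 6 of them. For the replication members the highest such share was 40.2%. Over all 18 mitosis members 10 were at least 2-fold higher, and without the 3 cells 5 were higher and 3 lower, with the median log2 ratio going from 1.27 to 0.09. Of the 18, 9 stayed under 5 CPM in both pools.

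The cyclin B kinase, which starts mitosis, was read mainly in member-rich cells. Ccnb1 was at 0.065 to 0.154 CPM on the control plates and on deleted plates 1 and 4 at 0.144 and 0.111 CPM, but at 12.3 and 14.3 CPM on deleted plates 2 and 3. H1 and D5 held 98.1% of its deleted-pool reads, and its other positive cell was the shallow C5, at 14.1 CPM. Cdk1 had 0 positive control cells and 3 positive deleted cells, 2 of them H1 and D5, with 6.13 CPM in the deleted pool and 1.88 CPM without them. Ccnb2 was at 1.22 and 6.59 CPM, and without the 3 cells at 0.63 and 0.28 CPM, so that the pools changed order.

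The mitotic kinases and their partners were read in at most 5 cells of a pool each. Plk1, a kinase of spindle assembly and cell division, was at 7.85, 0.094, 10.3 and 0.041 CPM on control plates and at 0.200, 15.03, 16.4 and 11.2 CPM on deleted plates, with 2 and 5 positive cells. The pools overlapped. Aurkb, the kinase of the chromosomal passenger complex, had 0 positive control cells and 4 deleted cells, 1 on each plate (one of them C5), with plates of 0.115 to 0.168 CPM in the control pool and 0.256, 8.83, 3.67 and 4.96 CPM in the deleted pool. Birc5, survivin of the same complex, was at 2.43 and 8.32 CPM and, without the 3 cells, at 1.79 and 0.24 CPM. Aurka, the kinase of spindle poles, was at 4.14 and 3.75 CPM in 3 and 2 cells, with 1 control cell (B8 of plate 3) holding 76.5% of the control reads. Tpx2, which activates Aurka on the spindle, had 0 positive control cells and 4 deleted cells on plates 2 and 3. Its deleted-pool level of 9.35 CPM was 6.61 CPM without H1 and D5, with cell C7 of deleted plate 3 holding 46.8% of the reads.

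Of the centromere and checkpoint genes, Cenpa alone was positive in many cells. Cenpa was at 41.8, 41.4, 113 and 61.2 CPM on control plates and at 64.3, 80.7, 78.6 and 83.3 CPM on deleted plates, in 70 and 71 cells, with control plate 3 the highest of all. Cenpe, the kinetochore motor, was positive in 3 control and 7 deleted cells, at 0.91 and 14.01 CPM, and at 0.75 and 6.88 CPM without the 3 cells. Its deleted plate 1 was at 0.312 CPM, within the control plates of 0.209 to 1.78 CPM, and deleted plate 4 was below them at 0.111 CPM. Cenpf was positive in H1 and D5 only, and the spindle checkpoint kinase gene Bub1 in no cell of either pool, with 23 and 26 reads in all. Its paralog Bub1b was at 0.71 and 1.08 CPM in 1 and 3 cells.

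Cdc20 (chromosome 4, 118432901 to 118437343) was the mitosis gene at 5 CPM or more whose plates did not overlap between the pools. Cdc20 was at 10.1, 0.24, 0.26 and 19.6 CPM on control plates 1 to 4, and at 50.2, 23.8, 56.4 and 35.1 CPM on the deleted plates. The lowest deleted plate was above the highest control plate. Without the 3 member-rich cells they overlapped, with control plate 4 at 17.2 CPM and deleted plate 2 at 14.3 CPM. The pools were at 7.72 CPM (exact Poisson interval 7.495 to 7.95) and 41.2 CPM (40.7 to 41.8), a log2 ratio of 2.28, and of 1.91 at 7.07 and 29.2 CPM without the 3 cells. These levels came from 4 control cells (335 to 1380 CPM) and 11 deleted cells (391 to 2745 CPM). Of the 3 control and 9 deleted positive cells outside the member-rich cells, 2 and 6 had no other mitosis member. Cdc20 overlaps the annotated extent of Elovl1, whose reads cannot be told apart without strand. With 1 plate left out, the log2 ratio stayed between 1.91 and 3.21.

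In the deleted pool Ube2c and Nusap1 were read mostly in H1 and D5. Ube2c, the ubiquitin-conjugating enzyme that works with Cdc20, was at 2.05 and 4.32 CPM and at 1.46 and 0.22 CPM without the 3 cells. Nusap1, a microtubule-binding protein of the spindle, was at 1.71 and 4.07 CPM and at 1.71 and 0.14 CPM without them. 1 control cell, C1 of plate 3, held 94.7% of the control reads of Nusap1. The spindle motor genes Kif11 and Kif20a were at 2.25 and 3.02 CPM and at 1.24 and 1.92 CPM, each in 2 to 5 cells of a pool. Cell E11 of deleted plate 4 had 3091 CPM of Kif20a and 60.2% of its deleted-pool reads, and with the mean of CPM over cells in place of summed reads the log2 ratio of Kif20a was 2.05 in place of 0.38.

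The markers of cycling cells Mki67 and Top2a were positive in few cells. Mki67 was at 8.68, 1.0002, 5.46 and 7.74 CPM on control plates and at 3.87, 22.0, 9.98 and 0.285 CPM on deleted plates. The deleted plates lay on both sides of the control range. Its positive cells numbered 8 in the control and 4 in the deleted pool, H1 alone held 60.1% of the deleted reads, and the log2 ratio of 0.56 was -1.41 without the 3 cells. Top2a, the topoisomerase that untangles replicated chromosomes, was at 5.04 and 12.6 CPM in 6 and 10 cells, with a log2 ratio of 1.17, and of 0.87 without them. Ccna2 was at 0.98 and 6.92 CPM, with D5 holding 63.2% of the deleted reads, and at 0.31 and 0.20 CPM without the 3 cells. The G1 to S cyclin gene Ccne2 was at 0.99 and 1.48 CPM in 2 and 5 cells.

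The tubulin members were read in most cells, and Hmgb2 and Stmn1 in fewer. Tubb5, a beta tubulin, was positive in 359 control and 354 deleted cells. It was at 989, 1120, 1024 and 1055 CPM on control plates and at 928, 863, 723 and 850 CPM on deleted plates. Every deleted plate was below every control plate, and the pools were at 1046 and 839 CPM, 1.25-fold apart. The alpha tubulin gene Tuba1b was positive in 220 and 210 cells (499 and 461 CPM), Hmgb2, a chromatin protein, in 160 and 150 cells (162 and 171 CPM), and Stmn1, a tubulin-binding protein, in 61 and 56 cells (85.9 and 85.1 CPM). The plates of these 3 overlapped.

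Anapc4 (chromosome 5, 52834135 to 52866734), a scaffold subunit of the anaphase-promoting complex, was the 1 member at least 2-fold lower. It was at 98.4, 179.8, 99.1 and 102.9 CPM on control plates and at 26.0, 94.4, 51.8 and 47.2 CPM on deleted plates. Every deleted plate was below every control plate, with deleted plate 2 close to the lowest control plate. The pools were at 119 and 55.2 CPM in 56 and 28 positive cells, a log2 ratio of -1.10, which was -0.85 without control plate 2. Anapc4 had 0 reads in H1 and 2 in D5, and 576 CPM in B10. Its positive cells had a median of 4 other members, as for the MCM genes.

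The remaining members had overlapping plates. Ezh2, the methyltransferase of histone H3 lysine 27, was at 30.4 and 46.85 CPM in 21 and 33 cells. Cks1b and Cks2, small subunits of cyclin-dependent kinases, were lower in the deleted pool, at 18.3 and 11.1 CPM and at 10.3 and 5.91 CPM, and Cks2 had a log2 ratio of -1.02 without the 3 cells in place of -0.71. Dut, which removes dUTP, was at 30.7 and 28.2 CPM in 33 cells of each pool. Tk1, thymidine kinase, was at 4.84 and 6.77 CPM, with 68.1% of its control reads in 1 cell. Its log2 ratio ran from -1.54 without deleted plate 1 to 1.53 without control plate 1, so its direction turned with the plate left out.

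In the 3 member-rich cells T cell genes were read, Ccr7 hardly, and the activation genes differed from cell to cell. The T cell receptor complex gene Cd3e was at 262 CPM in H1, 164 CPM in B10 and 86.2 CPM in D5, and Lck at 3227, 1621 and 4014 CPM. B cell markers were at 0 in all 3, and the myeloid markers at 20.5, 27.2 and 11.9 CPM in sum. Ccr7, a chemokine receptor of naive T cells, was at 7.0 CPM or less in all 3, while 55.9% (control) and 58.2% (deleted) of the other cells were positive for it. This was not particular to them, as the cells at 10 members had 5.43 (E2), 2.35 (F4) and 4.94 CPM (G9) of Ccr7. Cxcr3, a chemokine receptor of activated T cells, was at 1137 CPM in H1, 473 CPM in B10 and 260 CPM in D5, against 3.84% and 4.12% positive among the other cells. Ctla4 was at 435, 424 and 85.7 CPM, and Gata3 at 421, 973 and 951 CPM. Both were also read elsewhere: 18.9% and 32.4% of the other cells were positive for Ctla4, and 33.2% and 34.1% for Gata3. G9 likewise had Cxcr3 at 442 CPM and Ctla4 at 330 CPM, while E2 and F4 had 0 of both. With 3 cells these are descriptions.

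H1 held Foxp3, the transcription factor of regulatory T cells, at 841 CPM, together with Cxcr5 (788 CPM), Pdcd1 (283 CPM), Icos (626 CPM), Tnfrsf4 (1122 CPM) and Tnfrsf9 (814 CPM). Foxp3 was positive in 2.19% and 1.37% of the other cells. Not all listed genes of regulatory T cells were read in H1, with Ikzf2 at 0.57 CPM and Il2ra at 0 CPM. In H1 Tcf7 was at 4.56 CPM and Cd4 at 7.98 CPM, although it came through a CD4 gate. D5 held Cxcr5 at 1262 CPM and Tcf7 at 1176 CPM, with 0 CPM of Pdcd1 and Foxp3. B10 held Ikzf2 (532 CPM), Tnfrsf9 (569 CPM), Prdm1 (104 CPM) and Tbx21 (62.2 CPM), with 0.88 CPM of Cxcr5. Whether the 3 were OTII or host cells cannot be told apart from these counts.

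Genes outside the 42 were ranked on the same cells. The 10 non-member genes with the largest ratio between cells with 10 or more members and all other cells, taking the smaller of the pools, included Ncapg, Shcbp1, Prc1, Casc5, Nxn, Cdca8, Stk40, Alad and Cdk8. Several of them serve mitosis: Ncapg is a condensin subunit, Prc1 bundles the central spindle, Cdca8 is borealin of the chromosomal passenger complex, and Casc5 is an older symbol of the kinetochore gene Knl1. Cdca8 was at 944 CPM in H1, 385 CPM in B10 and 632 CPM in D5, and Shcbp1 at 405, 336 and 394 CPM. Not every one was read in each of the 3: Prc1 and Stk40 were at 0 in B10, Alad was at 0.57 CPM in H1 and 0 in D5, and Cdk8 was at 5.255 CPM in B10 and 0 in D5. Nxn was at 0 in all 3 and owed its place to other cells. The ranking was made on the cells that the count of members picked, so it describes them and tests nothing.

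Further cell cycle genes were taken from lists that hold none of the 42. Of 44 other replication genes, 37 had 5 CPM or more, of which 2 were higher and 5 lower by 2-fold or more, with a median log2 ratio of -0.01. The shares of all 9764 genes were 5.98% and 6.71%, here and for the lists that follow. Cdt1, which loads the MCM ring, was at 35.4 and 72.9 CPM (16 and 26 cells). The primase subunit gene Prim2 was at 24.9 and 5.71 CPM (11 and 3 cells), and the chromatin remodeller gene Hells at 23.1 and 7.24 CPM (15 and 10 cells). The plates of all 3 overlapped. H1, B10 and D5 were positive for 16, 22 and 11 of these genes, against a median of 2 in the other cells.

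Of 46 other mitosis genes with a row, 24 had 5 CPM or more, of which 6 were higher and 1 lower, with a median of 0.28, and of 0.10 without the 3 cells, where 6 and 1 also stood. Of the 6, 5 reached 5 CPM only through the deleted pool and so had to differ, and the count supports nothing by itself. Mad2l1, the spindle checkpoint protein that holds Cdc20 inactive, was at 15.7, 7.68, 9.10 and 0.43 CPM on control plates and at 17.3, 25.4, 15.9 and 37.6 CPM on deleted plates. Every deleted plate was above every control plate, by a margin of 15.9 over 15.7 CPM. Its positive cells numbered 8 and 19. The condensin gene Ncapd2 was at 41.99 and 20.3 CPM with overlapping plates. H1, B10 and D5 were positive for 29, 12 and 30 of these genes, against a median of 3.

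The 19 measured genes of G1 and of entry into the cycle had 0 higher and 1 lower, with a median of -0.01. The lower one was Foxm1 (8.80 and 1.28 CPM, named after its values were seen), which reached the minimum only through the control pool. Cdk6, a G1 kinase, was at 77.0 and 41.0 CPM, within 2-fold and with overlapping plates. Myb was higher on every deleted plate (222 and 275 CPM, 1.23-fold). Of 14 measured cell cycle brakes 3 were higher and 0 lower, with a median of -0.02, among them Gadd45b, a stress response gene, at 40.4 and 106 CPM in 28 and 53 cells. The plates of Gadd45b overlapped, at 26.9 to 53.8 CPM in the control pool and 46.2 to 206 CPM in the deleted pool. Of the 3 higher brakes, Cdkn2c (4.93 and 16.7 CPM, named after its values were seen) reached the minimum only through the deleted pool. The list for the anaphase-promoting complex held 15 genes and left out the member Anapc4. All 15 were within 2-fold, with a median of -0.11 and 6 of the 15 above 0. Anapc7 (57.8 and 32.9 CPM) and Cdc27 (27.9 and 16.6 CPM), like Anapc4, were lower in the deleted pool, but with overlapping plates. Cdc16 (97.4 and 133 CPM) and Anapc10 (17.7 and 22.9 CPM) were higher, also with overlap. Anapc11 (19.0 and 11.8 CPM) and Anapc13 (9.44 and 7.26 CPM), named after their values were seen, were lower on every deleted plate.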

How the data were processed

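T cells were sorted singly into plates and measured by SmartSeq2 with oligo(dT) priming, 25 PCR cycles and Tn5 libraries, per the labels' protocols. The authors deposited raw counts, as whole numbers of reads for each gene in each well. Counting used featureCounts 2.0.1 on mm10, per the submitters' processing notes. For the aligner, annotation, strand and multi-mapping settings, values were not given in the sources used here. No molecular identifiers were named, so PCR copies are counted as reads and intervals span counting error alone.

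The 32 control wells entered no comparison. No 2 cell columns were identical. Each well was to receive 1 sorted cell per the protocol, and doublets were not called, so this was not checked. Counts were summed per plate and pool and scaled to CPM (Python 3.11.15, pandas 2.3.3, numpy 2.4.6, scipy 1.17.1 for exact Poisson and Clopper-Pearson intervals, matplotlib 3.10.9). Ratios are log2 with a pseudocount of 1 CPM, and counts over genes used a minimum of 5 CPM in either pool. A floor for 0 cells is 3 counts. The sums, counts per cell and ratios were tested on simulated data.

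The members and lists were chosen with earlier results of these data known. All 42 members could be named. From each other cell cycle list the 2 largest ratios in each direction at 20 CPM or more could be named, and from non-members the 10 genes described in the text, at 50 CPM or more in cells with 10 or more members of both pools, predicted genes left out. T cell state genes and cell type markers were listed, and 5 listed symbols without a row were not analysed here. Some genes that these rules name are not reported here. Alternatives were leaving out each plate, other scalings, pseudocounts, minimums and cell thresholds, thinning, and leaving out the 3 member-rich cells, the last chosen after seeing the data. Coordinates and promoters are from RefSeq, GRCm38.p6.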

Additional observations from a re-analysis of the deposited data

Results flagged for a closer look

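The control wells named mBM10 and mBM100, which the labels do not explain and which entered no comparison, held more members with 5 reads or more than any cell, 34 to 42 in the 22 wells over 100000 reads against at most 33. Over these 23 wells the median number of members with 5 reads or more was 39 of 42, while wells without a cell had a median of 1 and at most 3. All 18 mitosis members reached 5 reads in the median mBM100 well and 15 in the median mBM10 well. Their mitosis members summed to a median of 3095 CPM, between cell B10 (1705 CPM) and cells H1 and D5 (11357 and 10754 CPM). 1 mBM100 well had 11622 reads and 3 members, like a well without a cell.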

How the results depend on the processing

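No paired analysis was possible because each group is 1 pool and the plates of the pools share no animals. Without the 3 member-rich cells, the median log2 ratio of the 32 members was 7.0e-05 in place of 0.39, with 4 at least 2-fold higher in place of 10 and 4 lower in place of 1, and of the members at least 2-fold higher Ccnb2 (-0.35), Birc5 (-1.17) and Ccna2 (-0.13) changed sign. Mki67 (-1.41), Nusap1 (-1.26), Ube2c (-1.01), Rrm2 (-0.40), Hmgb2 (-0.05) and Kif20a (-0.02) also turned negative. The higher members numbered 5 with a pseudocount of 5 CPM and 1 of 17 at a minimum of 20 CPM, and 2 were lower without the top cell of each gene. Leaving out 1 plate gave 6 (without deleted plate 3) to 10 higher members, 1 to 2 lower members (2 without control plate 4 or deleted plate 1, 2 or 3) and medians from 0.20 to 0.51. With 8 or more members in place of 10, the shares of cells were 4.08% in the control and 3.80% in the deleted pool, and 2 control cells had more mitosis than replication members in place of 0. Leaving out 1 plate gave shares of 0.362 to 1.09% for the control and 1.09% for the deleted pool. Thinning to 200000 reads left 3 cells with 10 or more members in each pool. Size factors moved all genes by -0.01. Depth limits the cells under 100000 reads, where 10 CPM is less than 1 read.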
